A study of Mus musculus with 11 samples.

Results

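The regions described here are stretches of accessible chromatin at 8 genes of the cartilage lineage in MPC2 cells, a mouse mesenchymal progenitor line that differentiates along the bone lineage. Members were chosen by gene name: each region of the deposited list that overlapped Sox9, Sox5, Sox6, Acan, Hapln1, Comp, Ihh or Pthlh between 50 kb upstream of the gene and its end was taken, with gene positions from GENCODE M21. This gave 69 of the 94963 regions in the list, or 0.0727%. For Sox9 the stretch to 500 kb upstream was read as well, which added 18 regions.

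Accessibility was profiled by ATAC-seq, which reads out where a transposase can cut open DNA, in 11 cultures of MPC2, a single conditionally immortalised clone. Undifferentiated cells (MSCs) had received vehicle (DMSO, 3 cultures) or the HIF prolyl hydroxylase inhibitor FG-4592 (Roxadustat, 50 uM, 3 cultures), and cells kept for 3 weeks in osteogenic medium (osteocytes) had received vehicle (2 cultures) or FG-4592 at the same dose (3 cultures), in every case for 48 hours. The design asked how accessibility responds to mimicked hypoxia and whether osteocytes respond as MSCs do. The list used here, however, gives each region 1 value for all cultures together, so that no group could be compared with another, no replicate error exists, the depth of the cultures is unknown, and within it a region open in MSCs cannot be told apart from one open in osteocytes. That value, the level, was read as the average log2 CPM of transposase cuts in the region, where CPM scales the cuts of a library to a fixed total.

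Chondrocytes and osteoblasts arise from a common mesenchymal progenitor. Sox9 is the transcription factor that commits this progenitor to cartilage, and Sox5 and Sox6 act beside it on the genes of the cartilage matrix. Acan encodes aggrecan, the large proteoglycan that holds water in cartilage. Hapln1 encodes the link protein that ties aggrecan to hyaluronan, and Comp encodes a matrix protein that binds collagen fibrils. In the growth plate, Indian hedgehog (Ihh) from maturing chondrocytes and parathyroid hormone-related protein (Pthlh) from less mature ones form a feedback loop that sets the pace of chondrocyte maturation.

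The chromatin of the list was first read at marker genes of the labelled cell type and of others, counting genes with a region within 1000 bp of the gene start. Such a region was present at 9 of 12 osteoblast and osteocyte genes and at 7 of 8 mesenchymal genes, against 59.1% of 21911 protein-coding genes. It was present at 6 of 8 adipocyte genes, 2 of 6 blood genes, 2 of 4 endothelial genes, 2 of 4 neuronal genes, 1 of 6 skeletal muscle genes and 0 of 4 epithelial genes (95% Wilson interval of the last, 0% to 49.0%). Of the 8 cartilage genes studied here 6 had one, and of 36 further cartilage genes 21 had one. These lists are small, and an accessible start is not a measure of expression.

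The 8 genes fell into distinct pictures. Sox9 carried a strong region over its start and many weak ones upstream. Sox5 had weak to moderate regions spread along its long body, whereas Sox6 had few. The aggrecan and link protein genes were nearly bare and lacked a region at the start. Comp had a strong region just upstream of its start but none in the gene, and both signalling genes had modest regions over their starts. The sequences that carry the contrast between these pictures follow in lower case, in the direction of the gene (mm10). In the stretches upstream of Sox9 and Acan the capitals mark CpG dinucleotides. In every region sequence they mark matches to the SOX, RUNX, AP-1, hypoxia response element, TEAD and GLI motifs whose letters are given with the motif counts. The Comp sequence holds 1, a hypoxia response element, and the Hapln1 region holds none. The Sox9 stretch (chr11:112781977-112782223, plus strand) lies between the start of Sox9 and that of the opposite transcript BC006965, inside the strongest region of the set, and holds 11 CpGs in 247 bases. The Acan stretch (chr7:79052976-79053225, plus strand, from RefSeq, build GRCm38.p6) covers the 250 bases before the RefSeq start of Acan, where no region was listed, and holds 26 CpGs. The Hapln1 sequence (chr13:89548349-89548565, plus strand) is the whole of the only region at that gene, and the Comp sequence (chr8:70371955-70372254, plus strand) is the central 300 bases of the region just upstream of Comp.
Sox9 divergent promoter: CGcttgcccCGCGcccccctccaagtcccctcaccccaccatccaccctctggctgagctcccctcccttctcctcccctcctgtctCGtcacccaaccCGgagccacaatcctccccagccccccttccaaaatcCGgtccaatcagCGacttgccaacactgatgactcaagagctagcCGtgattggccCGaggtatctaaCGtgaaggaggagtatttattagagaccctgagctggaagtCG
Acan upstream: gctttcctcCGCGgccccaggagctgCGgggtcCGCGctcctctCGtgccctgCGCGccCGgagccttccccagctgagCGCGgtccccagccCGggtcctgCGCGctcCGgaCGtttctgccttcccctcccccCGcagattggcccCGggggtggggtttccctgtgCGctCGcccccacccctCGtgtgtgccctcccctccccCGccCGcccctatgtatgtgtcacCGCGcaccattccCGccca
Hapln1 intron 1: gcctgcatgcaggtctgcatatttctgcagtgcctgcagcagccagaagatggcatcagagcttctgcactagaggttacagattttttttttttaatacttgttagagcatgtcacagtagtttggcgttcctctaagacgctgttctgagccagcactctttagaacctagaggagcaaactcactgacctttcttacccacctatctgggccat
Comp upstream: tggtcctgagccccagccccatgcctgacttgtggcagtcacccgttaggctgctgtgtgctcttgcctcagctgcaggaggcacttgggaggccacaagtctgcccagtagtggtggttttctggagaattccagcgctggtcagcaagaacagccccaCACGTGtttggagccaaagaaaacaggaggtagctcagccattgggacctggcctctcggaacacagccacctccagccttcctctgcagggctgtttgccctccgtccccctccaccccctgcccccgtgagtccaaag

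**Figure D1:**
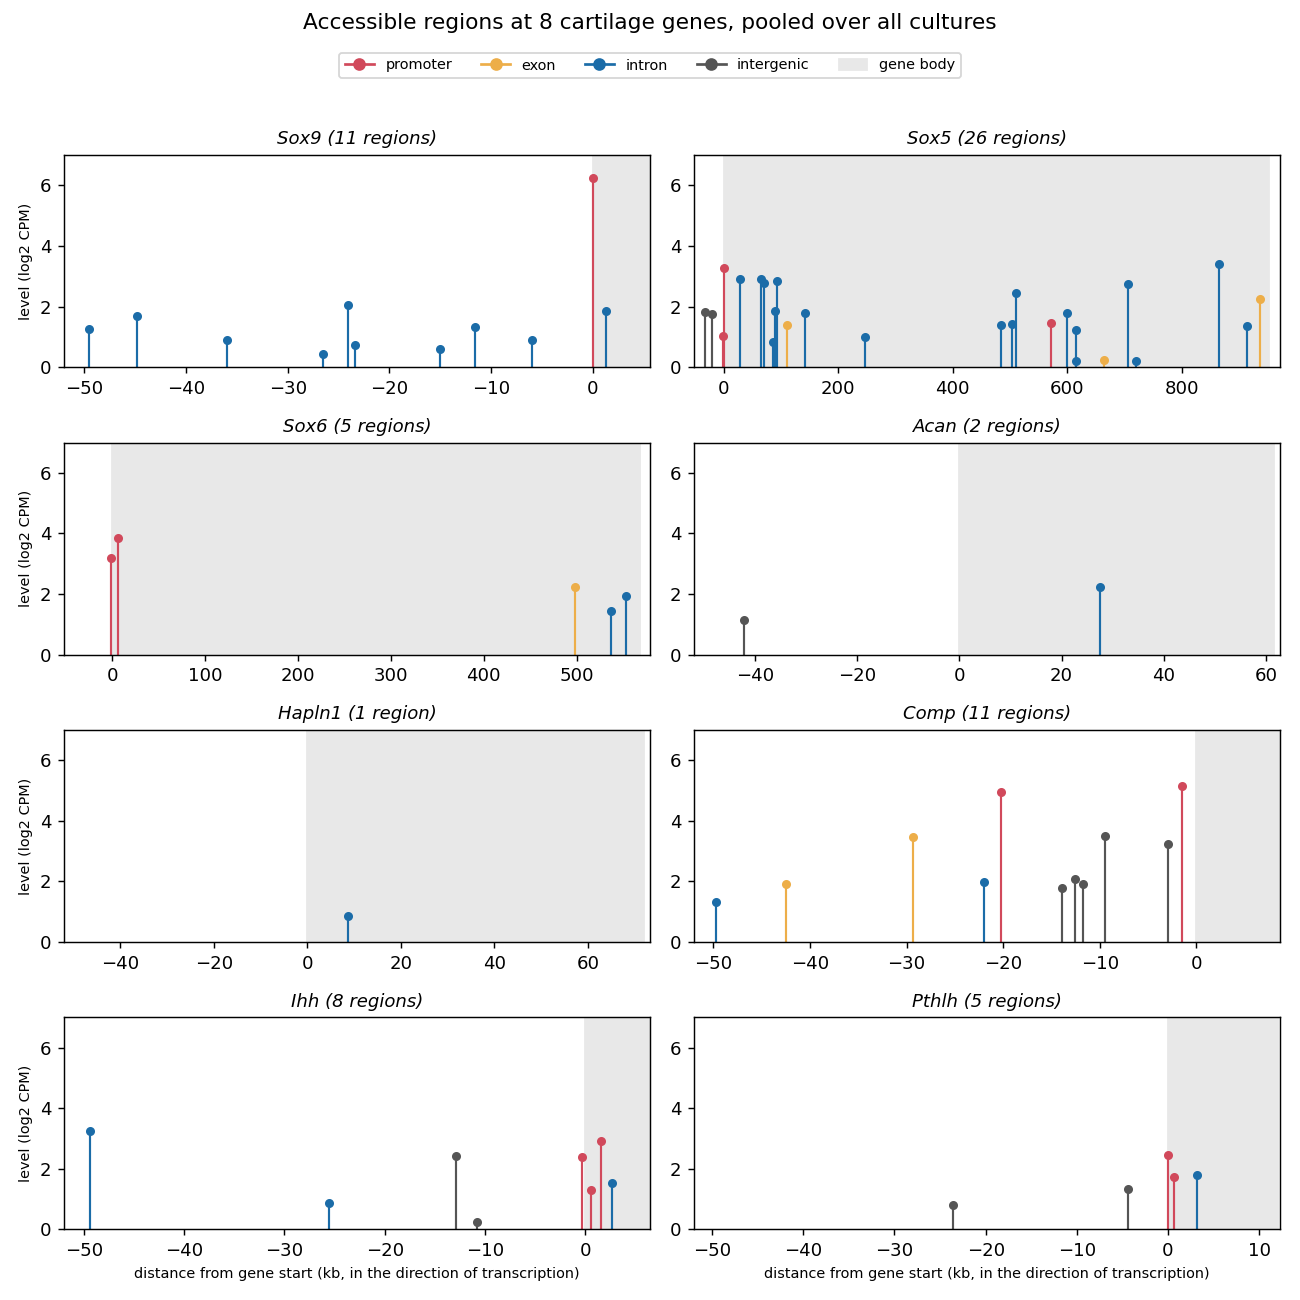
Each panel shows 1 gene, with the distance of each region's midpoint from the gene start in kb on the x axis (negative is upstream) and its pooled level in log2 CPM on the y axis; colours give the annotation of the region and grey shading the gene body. Sox9 has the highest point of the set, 6.24, at its start, and Acan and Hapln1 have no region at theirs.

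Sox9 (chr11:112782224-112787760, plus strand) had 11 regions in its window. The region over its start, chr11:112781346-112783161, was 1816 bp wide and had a level of 6.24 log2 CPM, the highest of the 69. It spanned exon 1 of Sox9, untranslated and coding bases alike, and also the start of BC006965, a noncoding transcript on the opposite strand, so that 1 region served both starts. The level exceeded that of 98.5% of all regions in the list and that of 77.1% of the regions of like width (within 10%). A narrow region of 213 bp followed in intron 1, chr11:112783398-112783610, with a level of 1.85 log2 CPM. It exceeded 97.7% of regions of like width, the highest such share among the 69. Its sequence is shown for that reason, with the motif found in it (a hypoxia response element core) in capitals.
Sox9 intron 1: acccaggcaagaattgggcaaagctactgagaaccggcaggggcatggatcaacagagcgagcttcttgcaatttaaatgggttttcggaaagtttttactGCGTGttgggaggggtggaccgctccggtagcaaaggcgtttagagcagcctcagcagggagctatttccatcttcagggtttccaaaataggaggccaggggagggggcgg

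The other 9 regions of the Sox9 window lay upstream, within the introns of BC006965, and were weak, with levels from 0.45 to 2.04 log2 CPM. The highest of them, chr11:112757961-112758424, was centred at -24032 bp from the Sox9 start. A count of 11 regions was high for a window of this length: of 10672 protein-coding genes whose window differed in length by at most 20%, 95.8% had fewer (95% Wilson interval 95.4% to 96.2%), with a median of 3. The count rested on narrow regions, since only the region over the start was at least 500 bp wide, and with that limit 34.2% of similar genes had fewer. The share also moved with the reach of the window, to 83.4% with 10 kb upstream, where Sox9 had 3 regions, and to 75.6% with 100 kb upstream, where it had 12.

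Between 50 and 500 kb upstream of Sox9, a stretch without a protein-coding gene, 18 further regions were listed. Far upstream elements at Sox9 are known for their part in its expression in cartilage and other tissues, which is why this stretch was read. The 28 regions within 500 kb upstream of the start, the one over the start included, can be set beside 768 other protein-coding genes that have no coding gene within 500 kb upstream. These had a median of 3 regions there (quartiles 0 and 9), and 93.9% had fewer than Sox9. The Sox9 count rested largely on narrow, weak regions. From 500 kb upstream to the gene end, 29 regions fell to 7 when limited to those at least 500 bp wide. The same number remained at or above the list's median level, and the share was not recomputed under either limit. The 18 distant regions had levels from 0.37 to 3.28 log2 CPM with a median of 1.55, and a median width of 392.5 bp. For their width these levels were low, exceeding a median of 23.9% of like regions, against 48.7% for the 11 regions nearer by.

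The distant regions were not spread evenly. By steps of 50 kb away from the start, the counts were 1 between 50 and 100 kb, 2 from 100 to 150 kb, 2 from 150 to 200 kb, 1 from 200 to 250 kb, 4 from 250 to 300 kb, 4 from 300 to 350 kb, 2 from 350 to 400 kb, and 1 in each of the last steps. The densest part thus lay 250 to 350 kb upstream. The strongest distant region, chr11:112620904-112622191, was 1288 bp wide with a level of 3.28 log2 CPM and its midpoint at -160677 bp. Next came chr11:112351819-112352645 at -429992 bp with 2.68 log2 CPM, chr11:112473271-112473884 at -308647 bp with 2.63, chr11:112480185-112480823 at -301720 bp with 2.44, and chr11:112610628-112611421 at -171200 bp with 2.29. Each of these 5 lay in intergenic sequence and none reached the level of the Sox9 start region. The strongest of the remaining steps were 2.14 log2 CPM at -138728 bp, 1.83 at -214969 bp, 1.67 at -280270 bp, 1.16 at -368025 bp, 0.55 at -71659 bp and 0.37 at -454852 bp. The central 300 bases of the strongest distant region are shown (chr11:112621398-112621697, plus strand), beside those of the region at -138728 bp (chr11:112643347-112643646), which had the highest level for its width among the 18, above 78.8% of like regions. Capitals mark a SOX and an AP-1 motif in the former, and an AP-1, a TEAD and 2 RUNX motifs in the latter.
Sox9 strongest distant region: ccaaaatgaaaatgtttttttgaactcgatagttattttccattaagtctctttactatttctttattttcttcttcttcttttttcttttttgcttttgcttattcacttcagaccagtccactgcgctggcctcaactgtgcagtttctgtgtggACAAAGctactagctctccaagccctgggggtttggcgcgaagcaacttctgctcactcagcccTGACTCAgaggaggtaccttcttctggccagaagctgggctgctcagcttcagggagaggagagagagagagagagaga
Sox9 distant region high for its width: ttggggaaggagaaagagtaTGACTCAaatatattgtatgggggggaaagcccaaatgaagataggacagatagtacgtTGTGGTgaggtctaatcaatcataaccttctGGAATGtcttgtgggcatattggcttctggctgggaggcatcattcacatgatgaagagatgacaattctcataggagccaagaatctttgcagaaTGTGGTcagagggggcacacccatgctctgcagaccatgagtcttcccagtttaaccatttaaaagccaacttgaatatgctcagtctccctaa

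**Figure D2:**
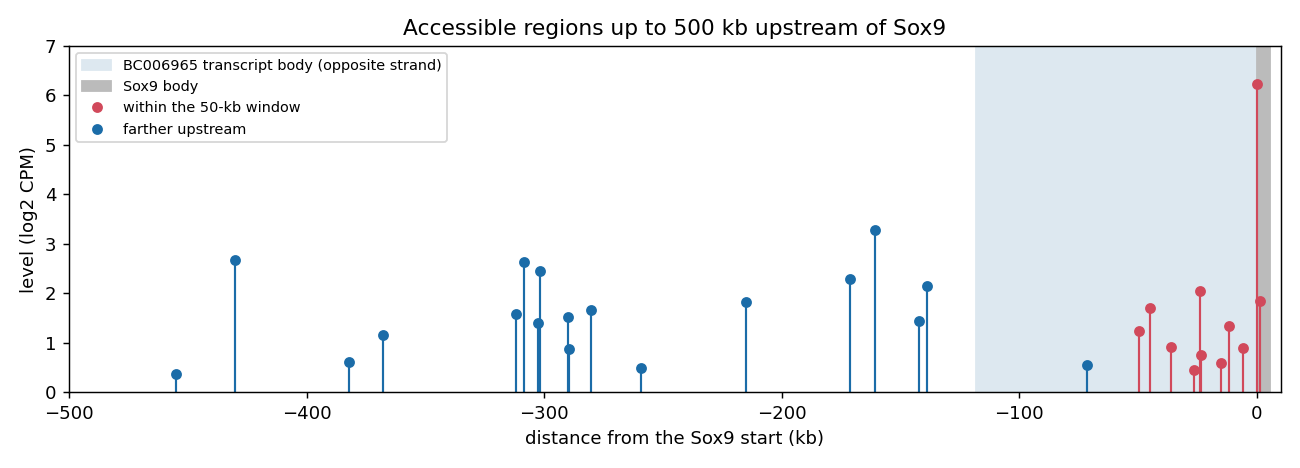
Regions from 500 kb upstream of Sox9 to its end, with the distance of the midpoint from the Sox9 start in kb on the x axis and the pooled level in log2 CPM on the y axis; blue shading is the body of BC006965. The start region stands at 6.24 and the highest distant region at 3.28.

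Sox5 (chr6:143828425-144781977, minus strand) and Sox6 (chr7:115470872-116038796, minus strand) encode close relatives of the same SOX subgroup that lack a known activation domain of their own. Sox5 had 26 regions and Sox6 had 5, in windows of 1004 and 618 kb. Of genes with windows of similar length, 83.8% had fewer regions than Sox5 (74 genes, interval 73.8% to 90.5%, median 8), and 34.2% had fewer than Sox6 (158 genes, interval 27.2% to 41.9%, median 9). Few genes are this long, and the intervals are wide. Counting only regions at least 500 bp wide, Sox6 kept 4 of its 5, and 56.3% of similar genes then had fewer. With 10 kb upstream the share was 40.1% at Sox6 and 77.8% at Sox5. With 100 kb upstream it was 45.9% at Sox6, which then had 10 regions, and 81.3% at Sox5. Over all coding genes the median share was 46.0% with 50 kb upstream. It was 40.1% with 10 kb upstream, 47.6% with 100 kb upstream and 43.3% with the width limit.

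At Sox5 the levels ran from 0.19 to 3.42 log2 CPM with a median of 1.78. The strongest region, chr6:143915977-143916769, lay in intron 8 of the transcript with the longest coding sequence and had a width of 793 bp and a level of 3.42 log2 CPM. The region over the upstream start of the gene, chr6:144781257-144782264, followed with 3.28 log2 CPM, and a weak neighbour at -554 bp had 1.03. That upstream start belongs to noncoding transcripts. Of the 7 annotated coding starts, 4 lay together about 572 kb further on and shared 1 region, chr6:144209348-144209727, which overlapped exon 1 with its 5′ UTR and coding sequence and had a level of 1.46 log2 CPM. The 3 coding starts about 835 kb into the gene had no region within 1000 bp. In this annotation the region over the upstream start of Sox5 is thus not at the start of a coding transcript.

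Regions clustered along Sox5. The first 150 kb of the gene held 9, the next 300 kb held 1, and 10 lay between 450 and 750 kb from the start. In the first stretch 4 intronic regions had closely similar levels, 2.90, 2.89, 2.77 and 2.86 log2 CPM at 27920, 65449, 70959 and 92717 bp after the start, all above the list's median of 2.12. The single region of the middle stretch, chr6:144535262-144535527, was weak, with 1.00 log2 CPM, but its sequence stood out. It is built of copies of a unit of about 16 bases: shifted by 16 positions, 60.4% of its bases matched, against a median of 25.9% at the other shifts tried. The repeat carried 6 RUNX and 5 GLI motifs, in capitals below together with 1 SOX motif, although it was not masked as a repeat in the reference. The central 300 bases of the strongest intronic region (chr6:143916224-143916523, minus strand) are given with it, and hold a TEAD, a RUNX, an AP-1, a hypoxia response element and a SOX motif.
Sox5 repeat region: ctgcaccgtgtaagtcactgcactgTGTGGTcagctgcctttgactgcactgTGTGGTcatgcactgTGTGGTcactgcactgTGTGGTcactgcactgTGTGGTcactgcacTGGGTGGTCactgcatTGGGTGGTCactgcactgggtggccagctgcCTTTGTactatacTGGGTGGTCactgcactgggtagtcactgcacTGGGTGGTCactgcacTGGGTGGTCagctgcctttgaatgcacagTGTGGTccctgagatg
Sox5 intron 8 region: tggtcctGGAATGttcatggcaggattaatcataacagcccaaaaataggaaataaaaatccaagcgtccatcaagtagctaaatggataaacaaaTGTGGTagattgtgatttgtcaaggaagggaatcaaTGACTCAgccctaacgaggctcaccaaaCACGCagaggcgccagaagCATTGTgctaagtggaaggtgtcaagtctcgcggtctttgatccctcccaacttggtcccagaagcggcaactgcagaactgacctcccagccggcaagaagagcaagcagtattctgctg

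At Sox6 the regions stood at both ends of the gene. The strongest, chr7:116031701-116033254, was 1554 bp wide with a level of 3.85 log2 CPM, 6319 bp after the gene start, and lay within 1000 bp of a coding and a noncoding Sox6 start and of a start of the antisense transcript Sox6os. For its width this was low, exceeding 5.16% of like regions. The region nearest the gene start, chr7:116039761-116040736 with 3.20 log2 CPM, lay inside the neighbouring gene 1110004F10Rik, also near its start, and ended less than 1000 bp short of Sox6, so that it cannot be assigned to either gene. The other 3 regions were near the far end, in introns 13, 14 and 16 of the transcript with the longest coding sequence, with 2.24, 1.44 and 1.94 log2 CPM. Between the ends ran 491 kb without a listed region, which contained 9 annotated Sox6 starts, 7 of them coding, of which 1 lay within 1000 bp of the strongest region. This is 79.5% of the window, and the longest stretch without a region was shorter at 82.3% of the 158 similar genes (median 232 kb). All 5 Sox6 regions had a level below the median of regions of their width. The region in intron 14 is shown because all 3 of its SOX motifs, 2 RUNX motifs and a hypoxia response element fall in its central 300 bases (chr7:115501570-115501869, minus strand); in places the motifs overlap each other.
Sox6 intron 14 region: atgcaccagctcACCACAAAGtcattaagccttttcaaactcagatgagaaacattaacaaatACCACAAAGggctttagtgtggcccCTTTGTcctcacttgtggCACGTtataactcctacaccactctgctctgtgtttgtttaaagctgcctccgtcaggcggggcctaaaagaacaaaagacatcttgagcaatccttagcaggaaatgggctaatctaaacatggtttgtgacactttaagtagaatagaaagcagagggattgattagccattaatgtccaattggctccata

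The matrix genes Acan (chr7:79053483-79115099, plus strand) and Hapln1 (chr13:89539796-89611652, plus strand) had the fewest regions. Acan had 2: an intergenic one at -42129 bp, chr7:79011149-79011559, with 1.14 log2 CPM, and one in intron 1 at 27594 bp, chr7:79080825-79081330, with 2.24 log2 CPM. Hapln1 had 1, in intron 1 at 8661 bp, chr13:89548349-89548565, only 217 bp wide and with 0.84 log2 CPM. Similar windows held a median of 6 regions in the case of Acan (12.6% of 3175 genes had fewer) and of 7 in that of Hapln1 (6.09% of 2642 genes had fewer, none of them with any region). Neither gene had a region within 1000 bp of any of its annotated starts, nor of its RefSeq start, which lies 257 bp from the GENCODE start in Acan and 840 bp in Hapln1.

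The bare start of Acan was the less usual of the pair. Promoters with many CpGs (GC content of at least 55% and an observed over expected CpG ratio of at least 0.6 within 500 bp of the start) are open in most cell types, and 90.2% of the 8393 such coding genes had a region at the start here. Acan met that definition, with a GC content of 64.1% and a ratio of 0.64, and was one of the 819 genes that lacked one. Hapln1 did not meet it, and 39.8% of the 13518 other genes had a start region. The region in Acan intron 1 was ordinary for its width, above 51.0% of like regions, and held none of the motifs searched for. The central 300 bases (chr7:79080928-79081227, plus strand) follow.
Acan intron 1 region: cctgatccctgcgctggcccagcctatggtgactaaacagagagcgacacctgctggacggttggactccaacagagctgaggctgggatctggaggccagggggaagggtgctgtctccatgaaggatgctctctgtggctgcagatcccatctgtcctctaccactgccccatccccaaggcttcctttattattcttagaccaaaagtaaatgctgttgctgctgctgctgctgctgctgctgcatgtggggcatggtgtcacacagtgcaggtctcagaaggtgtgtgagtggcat

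Comp (chr8:70373558-70382066, plus strand) differed from the other matrix genes, with 11 regions in its window, more than at 95.6% of 11823 similar genes (interval 95.2% to 95.9%, median 4). All 11 lay upstream and 0 in the gene itself. The window is crowded: 8 of the 11 regions were nearer to the start of another coding gene (Upf1 or Gdf1) than to that of Comp, among them the promoter region of Upf1, chr8:70352656-70353912 with 4.96 log2 CPM, and regions in the bodies of Upf1 and Cers1. The 3 regions nearest to Comp had their midpoints at -9451, -2912 and -1454 bp with levels of 3.49, 3.23 and 5.14 log2 CPM. The last, chr8:70371525-70372683, was the strongest region of the set after the Sox9 start. It ended 875 bp before the annotated Comp start and covered no start. It was not CpG-rich, with a ratio of 0.11, and its central part, printed above, holds CACGTG. These letters contain the hypoxia response element core searched for and are also the canonical E-box. The levels exceeded those of 70.1% of like regions at -1454 bp and of 90.6% at -2912 bp. Leaving out all but the 10 kb nearest to Comp, 3 regions remained, and 78.1% of similar genes then had fewer.

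The signalling genes had regions over their starts. Ihh (chr1:74945315-74951672, minus strand), the hedgehog ligand of the growth plate, had 8 regions, more than at 83.4% of similar genes (median 3). The count was 4 with 10 kb upstream, 18 with 100 kb upstream and 3 with regions at least 500 bp wide, and 93.8%, 95.4% and 62.9% of similar genes then had fewer. The region over its start, chr1:74951605-74952300, had 2.39 log2 CPM, and was followed inside the gene by chr1:74950958-74951239 over exon 1 with 1.30, chr1:74949669-74950498 in intron 1 with 2.91, and chr1:74948923-74949125, also in intron 1, with 1.54. The last was only 203 bp wide and exceeded 96.3% of like regions. Upstream, 2 intergenic regions at -10824 and -12901 bp had 0.26 and 2.43 log2 CPM, and 2 regions in introns of the neighbour Nhej1 at -25522 and -49409 bp had 0.87 and 3.27. The most distant one was the strongest of the window, and its nearest coding start was still that of Ihh.

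Pthlh (chr6:147252101-147264183, minus strand) had 5 regions, and 56.7% of similar genes had fewer (median 4). That place depended on the window and on width, with 85.9% at 10 kb upstream, 36.6% at 100 kb upstream and 31.2% with regions at least 500 bp wide. The start region, chr6:147263881-147264525, had 2.47 log2 CPM and the adjoining chr6:147263252-147263749, over exons 1 and 2, had 1.74. The remaining ones were an intronic region at 3194 bp with 1.80 log2 CPM and 2 intergenic regions at -4420 and -23560 bp with 1.33 and 0.79. The intronic region exceeded 75.4% of like regions and is shown (chr6:147260840-147261139, minus strand) because 2 AP-1 motifs and a RUNX motif stand close together in it.
Pthlh intron 2 region: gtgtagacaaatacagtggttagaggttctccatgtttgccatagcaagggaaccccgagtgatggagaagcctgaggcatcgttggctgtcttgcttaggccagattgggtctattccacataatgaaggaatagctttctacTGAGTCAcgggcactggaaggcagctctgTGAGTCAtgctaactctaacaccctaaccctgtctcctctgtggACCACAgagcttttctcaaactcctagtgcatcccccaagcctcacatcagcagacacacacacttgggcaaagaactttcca

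**Figure D3:**
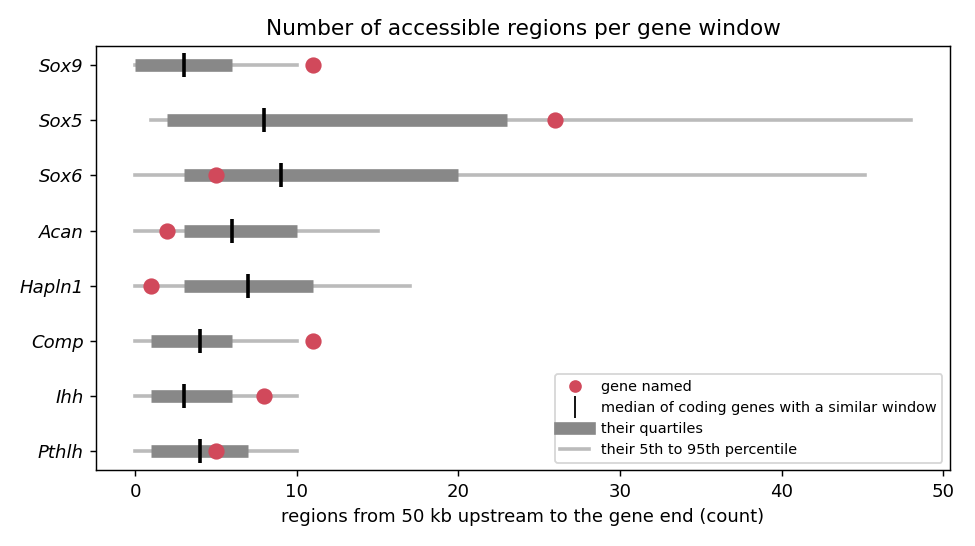
Number of regions from 50 kb upstream to the gene end for each gene (red), beside protein-coding genes whose window differs in length by at most 20% (black tick, median; thick bar, quartiles; thin line, 5th to 95th percentile). Sox9 and Comp, each with 11 regions, lie beyond the 95th percentile of 10, and Acan with 2 and Hapln1 with 1 lie below the lower quartile of 3.

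At the gene starts the set split in presence and in level. A region covered the annotated start of Sox9, Sox5, Ihh and Pthlh, 4 of 8 genes, against 51.4% of all coding genes. Sox6 and Comp had one within 1000 bp that did not reach the start, and Acan and Hapln1 had none. All 4 covered starts were CpG-rich. Among CpG-rich coding genes with a start region, which had a median level of 5.39 log2 CPM, that of Sox9 exceeded 83.5%, while those of Sox5, Ihh and Pthlh, at 3.28, 2.39 and 2.47, exceeded 9.78%, 5.45% and 5.81%. These 3 starts were thus listed but low for their class. Since the value is an average over all cultures, a start open in few of them and a start weakly open in all would give the same level.

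**Figure D4:**
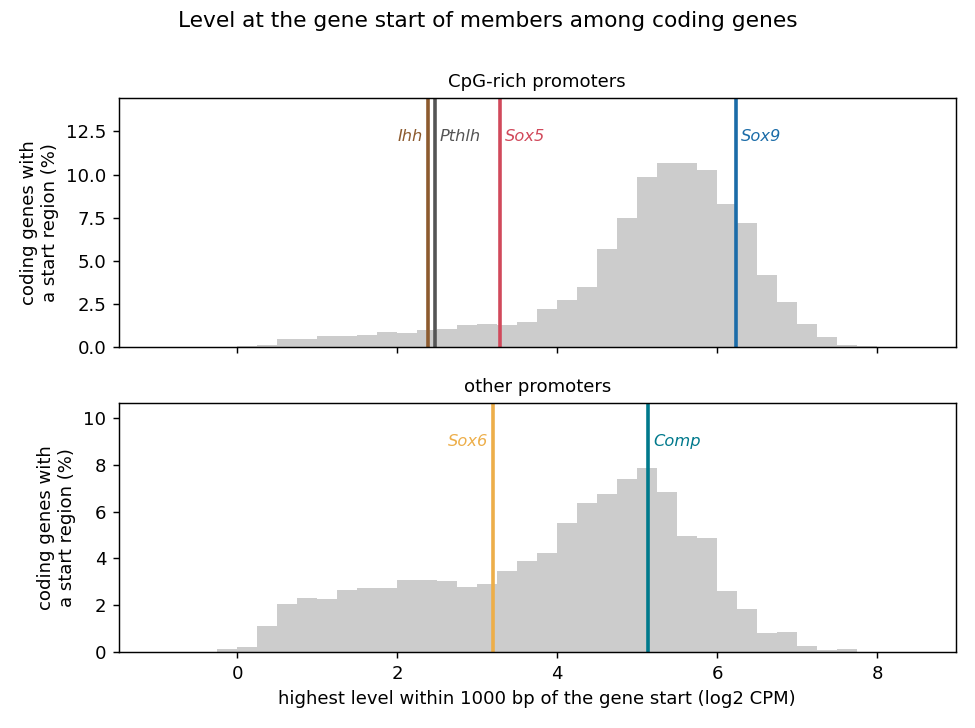
Histograms of the highest level within 1000 bp of the gene start, in log2 CPM, over protein-coding genes that have a region there (upper panel, CpG-rich promoters; lower panel, other promoters); the y axis is the percentage of those genes and lines mark members. Sox9 at 6.24 stands above the CpG-rich median of 5.39, and Ihh, Pthlh and Sox5 stand between 2.39 and 3.28.

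Over the 69 regions together, the median level was 1.79 log2 CPM (quartiles 1.25 and 2.47), against 2.12 (quartiles 1.23 and 3.35) over the whole list. The member regions were narrower, with a median of 390 against 460 bp, and the level rose with width among them as it did in the list (Pearson r of 0.90 in both, across regions that share the same pooled libraries). Compared with regions of like width, the members exceeded a median of 48.7% of them, so that their levels were ordinary for their width. Individual genes spread around this. At Comp 9 of 11 regions were above the median of like regions, at Sox5 10 of 26, at Sox9 5 of 11, at Ihh 4 of 8, at Pthlh 1 of 5, at Acan 1 of 2, at Hapln1 1 of 1 and at Sox6 0 of 5. Only 7 of the 69 exceeded the upper quartile of the list.

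**Figure D5:**
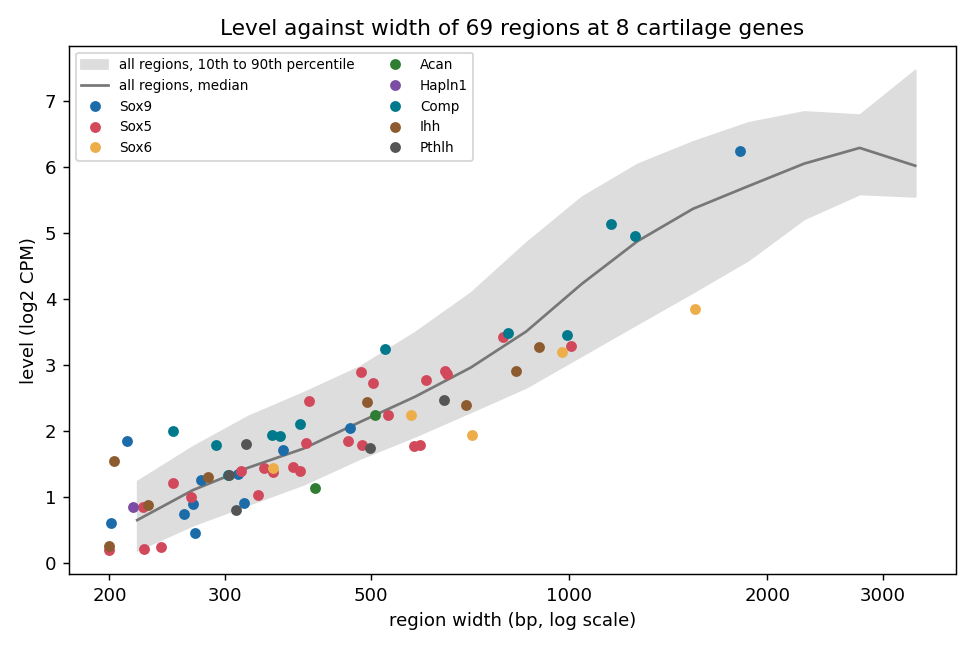
Width in bp (log scale) and pooled level in log2 CPM of the 69 regions, coloured by gene, over the median and the 10th to 90th percentile of all regions by width. Most points follow the grey band; the widest Sox6 region, with 3.85, lies below it and the narrow Sox9 intron region, with 1.85, above it.

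By annotation, 13 of the 69 regions were promoter regions (within 1000 bp of an annotated transcript start), 38 lay in introns, 12 in intergenic sequence and 6 over other exons. Promoter regions made up 18.8% of the set against 22.7% of the list. Their median level was 2.91 log2 CPM against 3.89 for promoter regions of the list, and that of the other 56 regions was 1.78 against 1.89. Repeats masked in the reference covered a median of 10.3% of a region, and 1 region was masked over more than 50% of its length, the intronic Sox5 region at 65449 bp.

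Motifs of factors tied to cartilage, bone and hypoxia were then counted on both strands: SOX (ACAATG or ACAAAG), RUNX (TGTGGT), AP-1 (TGACTCA or TGAGTCA), the core of the hypoxia response element (ACGTG or GCGTG), TEAD (GGAATG) and GLI (GACCACCCA). Overlapping matches of the same motif counted once, and different motifs may overlap. A SOX motif was present in 30 of 69 regions, 43.5% (95% Wilson interval 32.4% to 55.2%), against 44.9% of regions of like width. For RUNX the share was 36.2% against 39.9%, for the hypoxia response element 44.9% against 40.7%, for TEAD 24.6% against 28.3% and for AP-1 24.6% against 20.9%. The background lay inside the interval for each of these motifs. GLI motifs were found in 2 regions, the Sox5 repeat with 5 sites and a Upf1 intron region of the Comp window, or 2.90% (interval 0.80% to 9.97%) against 0.42%. This background lay below the interval, which rests on 2 regions. Inverted pairs of SOX motifs 3 to 5 bases apart, an arrangement bound by Sox9 dimers, were found in 0 of 69 regions (interval 0% to 5.27%), against 0.22% of like regions.

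By gene, the SOX motif stood in 5 of 5 Sox6 regions (interval 56.6% to 100%), which are wide, against 59.8% of regions of like width. It stood in 16 of 26 Sox5 regions, 61.5% (interval 42.5% to 77.6%) against 44.6%, in 3 of 11 Sox9 regions, 27.3% (interval 9.75% to 56.6%) against 37.1%, and in 0 of 5 Pthlh regions (interval 0% to 43.4%) against 42.8%. The share in like regions lay inside the interval for each of these 4 genes. AP-1 sites, bound by the Fos and Jun proteins, were found at 13 of the 26 Sox5 regions, 50.0% (interval 32.1% to 67.9%), and at 4 of the 43 regions of the other genes. Regions with widths like those at Sox5 held one in 21.4%, and those away from promoters in 22.7%. For the 43 regions no like-width share was computed, and over all 69 the share was 24.6% against 20.9%. In the central 200 bp of the Sox5 regions the share was 46.2% against 13.9% of like regions, and with the looser motif TGANTCA 53.8% against 27.1%. Of the 13 regions, 11 were intronic, as were 18 of all 26. They were wider than the other 13, with a median of 484 against 355 bp, and higher, with a median of 2.45 against 1.43 log2 CPM. Sox5 was singled out here after the counts had been seen, so its share is a description. For the SOX motif the share in the central 200 bp of the Sox5 regions was 23.1% against 24.6%. Hypoxia response element cores were found in 7 of the 26 Sox5 regions, 26.9% against 38.6% of like regions, and in 6 of the 11 Sox9 regions, 54.5% against 34.0% (intervals 13.7% to 46.1% and 28.0% to 78.7%). Both intervals include the share in like regions. One Sox5 region with 2 AP-1 motifs, at 511485 bp after the start with 2.45 log2 CPM, exceeded 86.1% of like regions; its central 300 bases (chr6:144270343-144270642, minus strand) are shown.
Sox5 intronic AP-1 region: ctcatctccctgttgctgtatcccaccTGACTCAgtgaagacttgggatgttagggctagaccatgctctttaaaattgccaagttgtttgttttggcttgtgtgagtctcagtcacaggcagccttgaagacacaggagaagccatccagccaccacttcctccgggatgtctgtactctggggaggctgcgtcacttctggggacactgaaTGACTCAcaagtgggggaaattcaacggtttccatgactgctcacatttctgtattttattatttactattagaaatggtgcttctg

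In the 50 to 500 kb upstream of Sox9, a RUNX motif stood in 10 of 18 regions, 55.6% (interval 33.7% to 75.4%), against 40.1% of like regions. AP-1 motifs were found in 6 of 18 regions, 33.3% against 21.3%, and hypoxia response element cores in 5 of 18, 27.8% against 40.3%. For these 3 motifs the share in like regions lay inside the interval. A GLI motif stood in 1 of 18 regions, 5.56% (interval 0.99% to 25.8%) against 0.39%, a background below the interval of a single match.

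Other genes of the cartilage program were read from a list of 36. A region lay within 1000 bp of the gene start at 21 of them, 58.3% (interval 42.2% to 72.9%), close to the 59.1% of all coding genes, and all 36 had at least 1 region in their window. The median share of similar genes with fewer regions was 64.2%, with 27 of 36 genes above the all-gene median of 46.0%. Of the 8 collagen genes in the list 3 had a start region: Col2a1, the main cartilage collagen, with a weak 1.47 log2 CPM, Col11a1 with 2.12 and Col11a2 with 3.76. Col10a1, the collagen of hypertrophic cartilage, had 1 region of 0.80 log2 CPM in its window and none at the start. The highest counts relative to similar genes were at Matn4 (15 regions), Wwp2 (28 regions), a ubiquitin ligase gene whose intron hosts a cartilage microRNA, and Col27a1 (25 regions). The lowest were at Bmpr1b, Epyc and Ucma, with 1 region each. The list holds 5 genes that act downstream of hedgehog ligands, and each had a start region, with 6.11 log2 CPM at Gli3, 5.77 at Smo, 3.45 at Gli1, 2.99 at Gli2 and 2.62 at Ptch1. All but Gli1 have CpG-rich promoters, a class in which 90.2% of genes had a start region with a median level of 5.39 log2 CPM, so that Gli2 and Ptch1 lay below and Gli3 and Smo above the median of their class. The parathyroid hormone receptor gene Pth1r had 10 regions and none within 1000 bp of its annotated gene start, although another of its starts had one. Of the 12 osteoblast and osteocyte genes of the marker lists, 11 lay above the all-gene median of 46.0%, with a median share of 85.3%. They ranged from Phex, with 6 regions and 25.7% of similar genes below it, and Dmp1, with 4 regions and 48.1%, to Alpl, the bone alkaline phosphatase gene, with 20 regions and 99.1%.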

How the data were processed

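ATAC-seq libraries of MPC2 cells were processed by the authors. Reads were trimmed with Trim Galore, aligned to mm10 with Bowtie2, cleared of duplicates with Picard 2.17.8 and of reads with low mapping quality and mitochondrial reads, and peaks were called with MACS2 2.2.7.1, merged across samples and filtered against the ENCODE blacklist. Cuts were counted with pyDNase, regions with at least 10 cuts in more than 1 sample were kept, and edgeR 3.24.3 with TMM was applied (tools per the labels and the study's methods). A library removed for quality by the authors was not analysed here, and a shift for the Tn5 offset is not given in the sources used here.

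The file used here, as the authors deposited it, is a list without a header that holds 1 log2 CPM value per region. The study's supplementary tables of comparisons were not used here. This unit was inferred from the values, which fell below 0 in 460 regions and summed to 1012760 CPM. The pooled value gives no depth or replicate per culture, so the planned comparisons between groups were not made, and no test was run.

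List starts were shifted by 1 to give 1-based coordinates. No region ran past a GRCm38 chromosome end. Genes came from GENCODE M21, and 6 of the 8 genes matched the RefSeq promoter table. Counts were set beside protein-coding genes with windows within 20% in length, and levels beside regions within 10% in width. These percentages and the 95% Wilson intervals are descriptions, and the intervals cover counting error only. All 69 regions enter the counts and medians, while regions were described singly only in part, and the members and lists were chosen with earlier results of these data known. Overlap counts and motif searches were tested on simulated data. Python 3.11.15 was used with numpy 2.4.6, pandas 2.3.3, scipy 1.17.1 and matplotlib 3.10.9.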

Additional observations from a re-analysis of the deposited data

How the results depend on the processing

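The number of regions at the 8 genes depended mainly on the reach of the window and on weak, narrow regions. It fell from 69 to 45 with 10 kb upstream, to 24 with regions at least 500 bp wide and to 24 with regions at or above the list's median level, and rose to 93 with 100 kb upstream and to 90 with 50 kb beyond the gene end. Fewer regions enter under the first 3 limits, and more under the others, by construction. The 29 regions of the Sox9 stretch fell to 7 under either the width or the level limit. The median over the 8 genes of the share of similar genes with fewer regions was 70.0%, against 46.0% over all coding genes, with 5 of the 8 above that value. It was 63.8% against 46.4% with window lengths within 10%, 77.9% against 40.1% with 10 kb upstream, 60.8% against 47.6% with 100 kb upstream and 45.3% against 43.3% with regions at least 500 bp wide, where 4 of the 8 were above. The cause of these shifts was not tested. The presence of a start region ranged from 4 to 6 genes, and the median share of like-width regions that the members exceeded, 48.7%, ranged from 44.9% to 48.3%. The share of genes similar to Acan with fewer regions was 8.22% with 10 kb upstream in place of 12.6%, and no Hapln1 region was 500 bp wide. Sox9 went from 11 to 18 regions when 50 kb beyond the gene end was added. Of the motif shares, the central 200 bp gave 18.8% for SOX (23.9% in like-width regions searched the same way), 24.6% for RUNX (23.3%), 31.9% for the hypoxia response element (22.7%) and 5.80% for TEAD (14.4%). The same search gave 21.7% for AP-1 (12.99%), a wider gap than in whole regions, and 2.90% for GLI (0.16%), which rests on 2 regions. Of the 15 regions with AP-1 in the centre, 12 were at Sox5. Looser motifs gave 73.9% for RUNX (TGNGGT, 67.6%), 65.2% for the hypoxia response element (CGTG, 61.3%) and 26.1% for AP-1 (TGANTCA, 26.6%). For SOX the alternative was ACAAT, which is shorter but leaves out ACAAAG and so is not a looser form. It gave 37.7% (46.0%). Requiring a region to cover the start was added after the data had been seen.

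No paired analysis was possible because the region list used here carries a pooled value. For the same reason the replicate block, leaving out replicates and size factors of another tool were not run. How many weak regions deeper libraries would add was not tested, as the depth is unknown.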

Other observations

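Family relatives of the 8 genes, of which Hapln3 was also on the cartilage list, gave a second set of values. Comp belongs to the thrombospondins, and Thbs1, Thbs2 and Thbs3 had 10, 13 and 10 regions with levels of 6.04, 5.17 and 5.28 log2 CPM at their starts, whereas Thbs4 had 2 regions and none at its start. Versican (Vcan), the relative of aggrecan in loose connective tissue, had 6 regions with 3.67 log2 CPM at the start, while Acan had none there. The brain proteoglycan genes Bcan and Ncan had 8 and 10 regions but none within 1000 bp of the gene start, although another annotated start of Bcan had one. Of the link protein genes, Hapln2, Hapln3 and Hapln4 had 6, 3 and 5 regions against 1 at Hapln1, and among them Hapln4 had a region at the gene start, with 2.54 log2 CPM, and Hapln2 at another annotated start. Windows of neighbouring relatives can share regions, so these counts are not all separate values. Bcan and Hapln2, both on chromosome 3, had the same highest level, 3.63 log2 CPM.

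Among the SOX relatives, Sox8 and Sox13 had start regions with 2.90 and 4.08 log2 CPM, and Sox10, a neural crest gene, had none. Of the hedgehog ligands, Dhh had a start region of 0.49 log2 CPM, lower than the 2.39 of Ihh, and Shh had 2 regions and none at the start. Pth, the hormone related to Pthlh, had a start region of 2.05 log2 CPM. Over the 16 relatives, 9 had a start region, 56.2%.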
